A study of Mus musculus with 9 samples.

Results

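The genes described here encode the ligands, receptors, signal carriers and regulators of the transforming growth factor-beta (TGF-beta) and bone morphogenetic protein (BMP) pathway in mouse cardiomyocytes, the contracting muscle cells of the heart. They were taken from the deposited count table by a rule on symbols that uses no values. These genes were, however, chosen with earlier results of these data known. Of the 15824 genes of the table, 49 carry a symbol of the Tgfb, Tgfbr, Bmp, Bmpr, Acvr, Smad, Gdf, Inhba/Inhbb, Ltbp, Smurf, Id, Tgif or follistatin-like families, and all 49 passed the filter on low counts. By role they are 3 TGF-beta ligands, 6 BMP ligands, 1 secreted protease, 4 growth differentiation factors (GDFs), 2 activin subunits, 4 latent TGF-beta binding proteins, 2 follistatin-like proteins, 7 type I receptors, 5 type II and III receptors, 6 receptor-regulated and common SMADs, 6 inhibitory SMADs, Smurfs and TGIFs, and 3 ID proteins. Another 13 symbols of these families, among them Nog, Fst, Grem1 and Id4, were not analysed here.

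The study sequenced RNA depleted of ribosomal RNA from cardiomyocytes of CD-1 mice, an outbred stock, at postnatal day 1 (P1), day 14 (P14) and day 56 (P56), with 3 libraries at each age. All groups share the stock, and the labels name no gene alteration and no treatment for any of them, although the growth protocol, which speaks of mice taken after surgery, seems shared with other work. Each P1 library pooled 12 hearts and each P14 or P56 library 6 to 7 hearts, so every value is an average over animals. The protocols describe both isolation of whole cells and sorting of nuclei that carry Pcm1, and the labels do not say which of these gave a given library.

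TGF-beta and activin ligands bind type II receptors that activate type I receptors, which phosphorylate SMAD2 and SMAD3. BMPs work in the same way through SMAD1, SMAD5 and SMAD9. Both arms share SMAD4, and the inhibitory SMAD6 and SMAD7 are themselves induced by the pathway and damp it. In the heart, BMP signals act in the forming myocardium and valves, while TGF-beta is known best for its action on fibroblasts and matrix.

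Library totals ran from 36619799 to 58538025 counts, the lowest at P14. Levels are given as CPM, the count of a gene relative to the total of its library, with totals scaled by edgeR's trimmed mean of M values (TMM). The 10 cardiomyocyte markers summed to 51500 to 61400 CPM in the P1 libraries, 60100 to 92000 in the P14 libraries and 55400 to 79100 in those of P56. Ttn and Ryr2 made up most of each sum (34500 and 18200 of 61400 CPM in P1 replicate 1). The lowest of the 10, Tnni3, stood at 138 to 283 CPM, so the defining markers of the labelled cell type were present in every library. The 47 markers of fibroblast, endothelial, leukocyte, smooth muscle and epicardial cells summed to 447 to 670 CPM in the P1 libraries, 668 to 1760 in the P14 libraries and 162 to 324 in those of P56. Among the P14 libraries the sum was 1760 in replicate 1, 1240 in replicate 2 and 668 in replicate 3. From P1 to P14, 35 of the 47 rose and 4 fell (median log2 change 1.90), and from P14 to P56, 34 fell and none rose (median −2.20). The cell types differed in the later interval. All 12 endothelial, 11 of 12 fibroblast, 6 of 8 smooth muscle and pericyte and 5 of 6 epicardial markers fell, but 0 of 9 leukocyte markers did. At P56, 7 of the 9 leukocyte markers were higher than at P1 (median 1.49 over the 9). One defining marker, the epicardial Msln, was at 0, in P56 replicates 2 and 3. In bulk RNA, fewer cells of a type and less RNA per cell cannot be told apart, and since nothing beyond the words biological triplicate says that libraries came from separate litters, p-values measure the spread between these libraries.

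From P1 to P14 the pathway genes moved in both directions, and from P14 to P56 most of those that moved fell. Of the 49 genes, 18 (36.7%) rose and 14 (28.6%) fell from P1 to P14 by the quasi-likelihood test of edgeR at a threshold of 0.05 (p-values adjusted after Benjamini and Hochberg over all 15817 genes tested), where 28.4% of all genes rose and 27.5% fell. The median log2 change of the 49 was 0.15, beside 0.00 for all genes. From P14 to P56, 6 (12.2%) rose and 26 (53.1%) fell, beside 27.5% and 28.5% of all genes, with a median of −0.50 beside −0.02. From P1 to P56, 6 (12.2%) rose and 20 (40.8%) fell, beside 30.9% and 31.7% (26 genes called in all, against 62.6% of all genes), with a median of −0.34 beside −0.03. The 3 comparisons share libraries and are not independent of each other. Some difference among the ages was called for 41 genes (83.7%), beside 78.0% of all genes, and the change from P14 to P56 differed from the change from P1 to P14 for 29 (59.2%), beside 50.0%. The libraries of the 2 ages did not overlap for 32 genes between P1 and P14 (63.9% of all genes), 34 between P14 and P56 (59.5%) and 32 between P1 and P56 (72.2%).

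**Figure D1:**
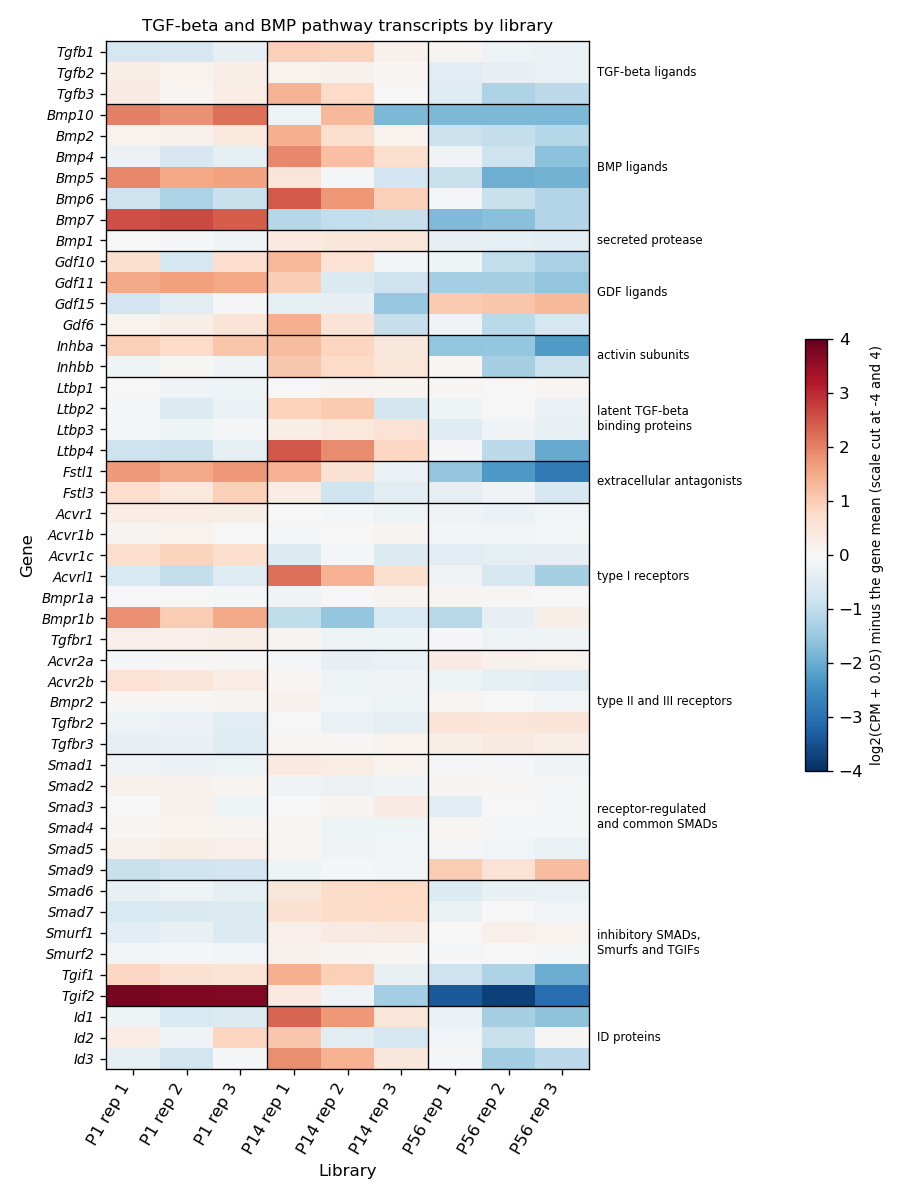
Level of the 49 pathway genes (rows, by role) in the 9 libraries (columns), as log2(CPM + 0.05) minus the mean of the gene, with the colour scale cut at −4 and 4. Tgif2, Bmp7 and Bmpr1b are high in the 3 P1 libraries, Ltbp4, Bmp6, Acvrl1, Id1 and Id3 are high at P14 and most so in replicate 1, and Smad9 and Gdf15 are high at P56.

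The markers of other cell types also changed between the ages, though not in step with these counts. As given above, most of the 47 rose from P1 to P14, where the pathway genes moved in both directions. Most of the markers then fell from P14 to P56, as did most pathway genes that were called. From P1 to P56, 11 of the 47 markers rose and 15 fell. With the marker score (the mean log2(CPM + 0.1) of the 47 markers in a library) added to the fit, 11 of the 49 genes were called higher and 22 lower from P1 to P14, 5 higher and 10 lower from P14 to P56, and 12 higher and 23 lower from P1 to P56. Of the calls made without the score, 23 of 32 held with it for P14 against P1, 13 of 32 for P56 against P14 and 26 of 26 for P56 against P1. With the score, 24.8% of all genes rose and 25.0% fell from P1 to P14, 16.3% rose and 15.6% fell from P14 to P56, and 32.2% rose and 32.8% fell from P1 to P56. The values with the score are given beside the genes below where they end a call of either interval, turn its direction or move it by more than 1.5 times, as are those without a single library.

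**Figure D2:**
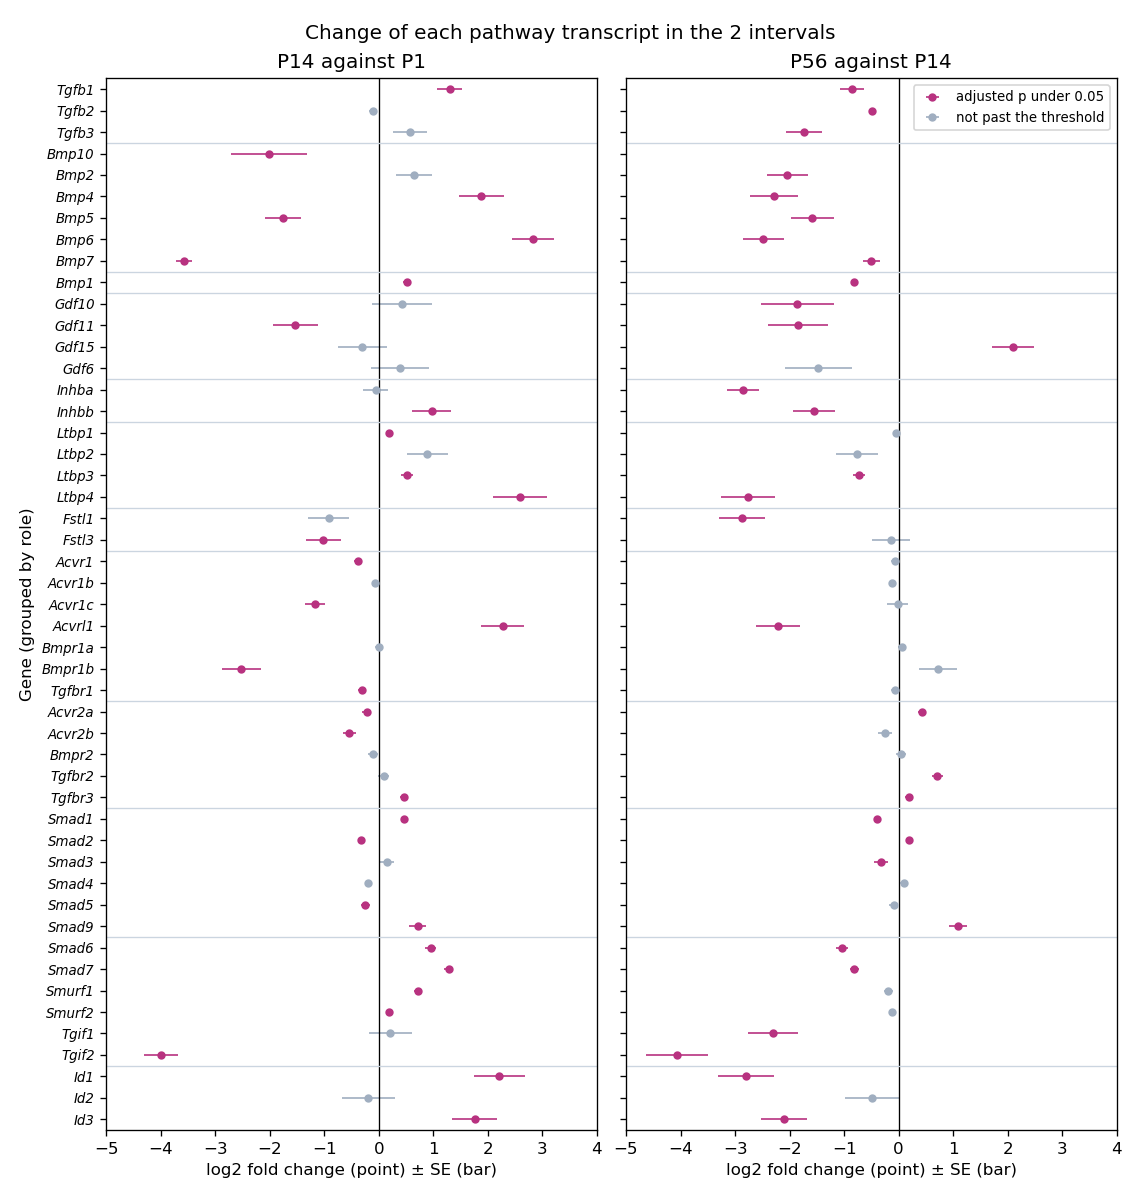
Log2 change of each pathway gene (point) ± SE (bar) from P1 to P14 (left) and from P14 to P56 (right), coloured by whether the adjusted p was under 0.05. Bmp10 is left out on the right because it had 0 counts at P56. The left panel holds 18 genes called higher and 14 called lower, and all 3 TGF-beta ligands and the 5 BMP ligands drawn lie left of 0 on the right.

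Upstream sequence is shown for 5 genes on which the results below turn: Smad6, which peaked at P14, Smurf1, which rose by P14, Smad9 and Tgfbr2, which were highest at P56, and Tgif2, which was nearly lost. The sequences are RefSeq's on GRCm38.p6, read 5′ to 3′ on the strand of the gene and ending just before the RefSeq start, or 18 bases before it for Smurf1. Capitals mark the SMAD-binding letters CAGAC, which reads GTCTG on the other strand, or else the motif GGCGCC, rich in G and C. The Smad6 stretch is chr9:64022060-64022209 (minus strand) and the Smad9 stretch chr3:54755432-54755581 (plus). The Smurf1 stretch is chr5:144965848-144966030 (minus), the Tgif2 stretch chr2:156839857-156840006 (plus) and the Tgfbr2 stretch chr9:116175364-116175543 (minus).
Smad6: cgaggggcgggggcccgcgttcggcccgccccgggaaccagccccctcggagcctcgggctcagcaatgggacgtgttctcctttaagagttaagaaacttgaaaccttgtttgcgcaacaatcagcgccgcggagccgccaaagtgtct
Smad9: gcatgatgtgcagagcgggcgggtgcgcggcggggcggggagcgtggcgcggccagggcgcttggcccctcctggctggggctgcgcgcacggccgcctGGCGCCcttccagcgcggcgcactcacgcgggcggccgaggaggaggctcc
Smurf1: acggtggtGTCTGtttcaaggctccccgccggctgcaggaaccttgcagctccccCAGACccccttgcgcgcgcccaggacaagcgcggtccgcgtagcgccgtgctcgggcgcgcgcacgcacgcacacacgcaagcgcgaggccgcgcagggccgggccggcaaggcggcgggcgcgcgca
Tgif2: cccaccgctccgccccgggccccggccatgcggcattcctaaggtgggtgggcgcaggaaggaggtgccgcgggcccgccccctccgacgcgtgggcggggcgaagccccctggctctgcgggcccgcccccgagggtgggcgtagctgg
Tgfbr2: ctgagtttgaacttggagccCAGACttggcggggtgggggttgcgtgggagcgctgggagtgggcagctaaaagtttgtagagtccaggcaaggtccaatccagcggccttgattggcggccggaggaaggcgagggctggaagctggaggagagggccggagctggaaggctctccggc
RefSeq upstream windows of 250 bases were matched for 38 of the 49 genes, 52 windows in all. CAGAC, on either strand, stood in 46.2% of these windows (19 genes) and in 42.2% of all 32851 windows. GGCGCC, which reads the same on both strands, stood in 17.3% of them (8 genes) and in 9.59% of all windows, while the median GC content was 64.2% in the windows of the pathway genes and 52.4% in all. The full SMAD palindrome GTCTAGAC and the longer AGCCAGACA, of which CAGAC is a part, stood in none of the 52 windows and in 0.167% and 0.301% of all. A match is a description of the letters and not of binding, and the stretches of Smad6 and Tgif2 hold none of the 4 motifs.

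TGF-beta ligands were lower at P56 than at P14, all 3 of 3, while 1 of 3 rose from P1 to P14. The shares of all genes given above (28.5% fell from P14 to P56) are the background of these counts and of those of each role below. With the marker score, Tgfb2 alone of the 3 was still called lower at P56 than at P14. Tgfb2 (chromosome 1, 186622792 to 186705989 on GRCm38), the isoform tied to heart formation, had the highest level of the 3, also per kilobase of exon (7.78 ± 0.361 at P1, 7.23 ± 0.288 at P14 and 5.18 ± 0.303 at P56, SD, n = 3). It stood at 46.5, 42.7 and 46.0 CPM in the P1 libraries, 42.0, 43.5 and 40.2 at P14, then 28.1, 30.3 and 31.6 at P56. The P56 libraries lay below all others, while P1 and P14 overlapped. Its log2 change was −0.11 ± 0.07 (SE) from P1 to P14 (adjusted p = 0.203) and −0.48 ± 0.07 from P14 to P56 (adjusted p = 0.000269), and the difference between the intervals passed the threshold (−0.38 ± 0.12, adjusted p = 0.0218). Tgfb1, the isoform of immune and matrix regulation, stood at 1.66, 1.65 and 2.14 CPM in the P1 libraries, 5.21, 5.16 and 3.03 at P14, then 2.90, 2.30 and 2.23 at P56. Every P14 library lay above all others, and replicate 3 was the lowest of them. Tgfb1 rose by 1.30 ± 0.23 from P1 to P14 (adjusted p = 0.000922) and fell by 0.85 ± 0.22 to P56 (adjusted p = 0.00914). Tgfb3, known from palate and valve development, fell by 1.73 ± 0.33 from P14 to P56 (adjusted p = 0.00158) and was at 0.57 ± 0.31 from P1 to P14 (adjusted p = 0.143, or 0.85 and 0.0109 without P14 replicate 3). In the fit with the marker score, Tgfb1 stood at 0.52 and 0.21 and Tgfb3 at −0.76 and 0.05 in the 2 intervals, and Tgfb3 was then called lower from P1 to P14 (adjusted p = 0.0378). Endothelial markers summed to 71.5 to 98.2 CPM in the P1 libraries, 214 to 547 in the P14 libraries and 39.1 to 95.8 in those of P56, and their part in these values was not tested.

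BMP ligands parted from P1 to P14, with 2 of 6 higher and 3 lower, and all 6 were called lower from P14 to P56, beside 28.5% of all genes. With the marker score, Bmp7 alone of the 6 was still called lower from P14 to P56, beside 15.6% of all genes. Bmp7 (ENSMUSG00000008999, chromosome 2, 172868012 to 172940321), a ligand of kidney and eye development, stood at 56.4, 58.4 and 50.1 CPM in the P1 libraries, 4.24, 4.76 and 4.88 at P14, then 2.72, 2.94 and 4.17 at P56. The P1 libraries stood far above the others and no ages overlapped. Bmp7 fell by 3.57 ± 0.15 from P1 to P14 (adjusted p = 1.53e-07), or −3.11 with the marker score, and the change from P14 to P56 was smaller, at −0.50 ± 0.15 (adjusted p = 0.0198; difference between the intervals 3.07 ± 0.27, adjusted p = 3.3e-05). The later call was lost without P14 replicate 2, P56 replicate 1 or P56 replicate 2 (−0.48, −0.38 and −0.43, adjusted p = 0.0572, 0.0663 and 0.0692), and stood at −1.14 with the marker score. Bmp5, of the same subgroup, stood at 4.76, 3.68 and 3.78 CPM in the P1 libraries, 1.74, 1.16 and 0.690 at P14, then 0.634, 0.276 and 0.290 at P56. It fell by 1.76 ± 0.33 (adjusted p = 0.00152) and then by 1.58 ± 0.40 (adjusted p = 0.00719), with no overlap between ages, and with the marker score it stood at −3.13 and 0.22.

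Bmp6 (chromosome 13, 38345107 to 38500302), the third ligand of that subgroup and a regulator of iron balance, moved the opposite way to Bmp7 from P1 to P14. Its levels were 6.48, 4.72 and 6.16 CPM in the P1 libraries, 63.0, 37.9 and 22.3 at P14, then 10.8, 6.15 and 5.10 at P56. All P14 libraries lay above the rest, and within P14 replicate 1 was the highest and replicate 3 the lowest, the order of the marker sums. Bmp6 rose by 2.83 ± 0.39 (adjusted p = 0.000207) and fell by 2.48 ± 0.38 (adjusted p = 0.00045). The rise with the marker score stood at 1.14 and was still called (adjusted p = 6.53e-05), while the fall stood at −0.26 and was not (adjusted p = 0.343). Bmp4, a ligand of mesoderm and endothelium, stood at 0.443, 0.322 and 0.396 CPM in the P1 libraries, 2.15, 1.27 and 0.883 at P14, then 0.476, 0.276 and 0.134 at P56. P14 lay above all others, with replicate 1 the highest. Bmp4 rose by 1.88 ± 0.41 (adjusted p = 0.00357) and fell by 2.28 ± 0.44 (adjusted p = 0.00178), values that were 0.21 and −0.07 with the marker score. Bmp2, a ligand of valve formation, stood at 0.506, 0.512 and 0.612 CPM in the P1 libraries, 1.30, 0.730 and 0.497 at P14, then 0.226, 0.207 and 0.178 at P56. The P56 libraries lay below all others, while P1 and P14 overlapped. Bmp2 fell by 2.04 ± 0.38 from P14 to P56 (adjusted p = 0.00139, and −0.32 and 0.787 with the marker score), and from P1 to P14 it was at 0.64 ± 0.33 (adjusted p = 0.123, or 0.91 and 0.0245 without P14 replicate 3, and −0.64 and 0.28 with the marker score).

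Bmp10, a ligand of the fetal ventricle that is kept in the adult atrium, had 113 counts over the P1 libraries, 18 over P14 and 0 over P56. It stood at 0.648, 0.569 and 0.757 CPM at P1 and at 0.102, 0.379 and 0 CPM at P14. P56 was at least 9.55-fold lower than P1 and at least 2.33-fold lower than P14, against a floor of 3 counts per library (0.0689 CPM), which covers counting error only. Its log2 change from P1 to P14 was −2.02 ± 0.70 (adjusted p = 0.0394). That call was lost without any of the 3 P1 libraries (−1.91 to −2.11, adjusted p = 0.0714 to 0.102) or without P14 replicate 1 (−1.77, adjusted p = 0.0753), and the value was −3.57 without P14 replicate 2, the library with the most Bmp10 at P14. Bmp10 is counted among the genes that fell from P14 to P56, a call that was lost without P14 replicate 2 or any of the 3 P56 libraries (adjusted p = 0.0539 to 0.0809). With the marker score neither call held: the change from P1 to P14 was −3.30 (adjusted p = 0.0659), and the adjusted p from P14 to P56 was 0.26.

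Bmp1 despite its name encodes a secreted protease that matures procollagens and frees ligands. Like Bmp6 and Bmp4 it rose and then fell, though by smaller log2 changes. It stood at 39.2, 37.1 and 35.7 CPM in the P1 libraries, 51.1, 53.3 and 55.1 at P14, then 30.8, 30.7 and 28.7 at P56. No ages overlapped, and P14 was the highest, with replicate 1 the lowest of its 3 libraries. Bmp1 rose by 0.51 ± 0.06 (adjusted p = 9.79e-05), fell by 0.82 ± 0.06 (adjusted p = 7.73e-06) and ended lower at P56 than at P1 (−0.31, adjusted p = 0.00159). Its values with the marker score were 0.54 and −0.86.

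GDFs and activin subunits were scarce, at most 2.53 CPM in any library. Gdf15, a stress-induced factor, was the GDF that rose: it stood at 0.126, 0.171 and 0.234 CPM in the P1 libraries, 0.179, 0.189 and 0.0552 at P14, then 0.566, 0.597 and 0.691 at P56. The P56 libraries lay above all others. Its log2 change was −0.30 ± 0.45 from P1 to P14 (adjusted p = 0.587) and 2.10 ± 0.39 from P14 to P56 (adjusted p = 0.00141). The Gdf15 values rest on few counts, 30 over the P1 libraries, 16 over P14 and 82 over P56. Gdf11, a close relative of myostatin, stood at 1.30, 1.44 and 1.33 CPM in the P1 libraries, 0.894, 0.270 and 0.221 at P14, then 0.136, 0.138 and 0.111 at P56. No ages overlapped. Gdf11 fell by 1.53 ± 0.41 and by 1.84 ± 0.55 (adjusted p = 0.0101 and 0.0162). P14 replicate 1 stood well above the other P14 libraries, and without it the changes were −2.45 and −0.92, the second not called (adjusted p = 0.0894, and 0.052 at −1.75 without P56 replicate 3). They stood at −2.94 and 0.02 with the marker score. Gdf6 and Gdf10, skeletal ligands, were at most 0.767 CPM throughout and did not pass the test for any difference among ages. Gdf10 was called lower from P14 to P56 (−1.86 ± 0.67, adjusted p = 0.0372), a call lost without P14 replicate 1 or 2 or P56 replicate 2 or 3 (−1.33 to −1.94, adjusted p = 0.0653 to 0.141). With the marker score it stood at 1.48, and from P1 to P14 Gdf6 and Gdf10 then stood at −1.94 and −2.10, beside 0.39 and 0.43. Without P14 replicate 3, Gdf6 was called lower at P56 than at P14 (−1.91, adjusted p = 0.00545; 1.60 and 0.205 with the marker score and all libraries) and than at P1 (−1.08, adjusted p = 0.0487), and Gdf10 was called lower at P56 than at P1 without P1 replicate 2 (−1.79, adjusted p = 0.0306).

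Inhba, the βA subunit of activins and inhibins, stood at 2.07, 1.82 and 2.32 CPM in the P1 libraries, 2.53, 1.95 and 1.46 at P14, then 0.317, 0.321 and 0.178 at P56. The P56 libraries lay far below the rest, while P1 and P14 overlapped. Inhba fell by 2.85 ± 0.29 from P14 to P56 (adjusted p = 4.17e-05), after −0.06 ± 0.23 from P1 to P14 (adjusted p = 0.833), and with the marker score the first change stood at −0.98 (adjusted p = 0.0159) and the later fall at −1.61, both called. Inhbb, the βB subunit, was at most 0.818 CPM. It rose by 0.97 ± 0.36 (adjusted p = 0.0429) and fell by 1.55 ± 0.39 (adjusted p = 0.00757), or 0.09 and −0.37 with the marker score. The rise was lost without any P1 library, P14 replicate 1 or 2, or P56 replicate 3 (0.79 to 1.05, adjusted p = 0.0521 to 0.115). Without P56 replicate 1 Inhbb was called lower at P56 than at P1 (−1.19, adjusted p = 0.0222).

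Latent TGF-beta binding proteins, which hold the inactive cytokine in the matrix, rose from P1 to P14 in 3 of 4 cases and 2 of 4 fell afterwards. Ltbp1 (chromosome 17, 75005568 to 75392512) had the highest level of the 4 per kilobase of exon, at 30.7 ± 1.74, 35.2 ± 1.30 and 33.9 ± 0.831 (SD, n = 3) from P1 to P56. Per kilobase of gene span, Ltbp3 was above Ltbp1 at P1 (1.02 and 0.849) and P14 (1.46 and 0.972). At P56 it was below (0.884 and 0.937). Ltbp1 stood at 350, 320 and 316 CPM in the P1 libraries, 360, 386 and 382 at P14, then 363, 354 and 371 at P56. P1 lay below P14 and P56, and these overlapped. Ltbp1 rose by 0.19 ± 0.06 from P1 to P14 (adjusted p = 0.0182). The call was lost without P1 replicate 2 or 3 or P14 replicate 2 (0.17 to 0.18, adjusted p = 0.0623 to 0.0709), and Ltbp1 was called higher at P56 than at P1 without P1 replicate 1 (0.19, adjusted p = 0.0305) or P14 replicate 1 (0.14, adjusted p = 0.0421).

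Ltbp4, the form tied to elastic fibres, stood at 3.00, 2.92 and 4.02 CPM in the P1 libraries, 30.2, 20.1 and 9.49 at P14, then 5.05, 2.55 and 1.27 at P56. P14 lay above all others, again with replicate 1 the highest and replicate 3 the lowest. Ltbp4 rose by 2.59 ± 0.49 (adjusted p = 0.00148) and fell by 2.76 ± 0.50 (adjusted p = 0.00119), and with the marker score it stood at 0.46 and 0.00, neither called. Ltbp3, which is needed for TGF-beta action in bone, stood at 18.7, 17.0 and 18.3 CPM in the P1 libraries, 22.7, 26.0 and 28.6 at P14, then 13.8, 17.4 and 15.6 at P56. P14 was the highest here too, but replicate 1 was its lowest library. Ltbp3 rose by 0.51 ± 0.11 (adjusted p = 0.00289) and fell by 0.72 ± 0.11 (adjusted p = 0.00042), or 0.77 and −1.09 with the marker score. Ltbp2, which does not bind latent TGF-beta, was at most 2.57 CPM and did not pass in any comparison. Without P14 replicate 3 it was called in both intervals (1.28 and −1.15, adjusted p = 0.000556 and 0.00108), while with the marker score the signs turned (−0.25 and 0.81, adjusted p = 0.725 and 0.401).

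Follistatin-like proteins fell. Fstl1, a secreted glycoprotein of stromal and epicardial cells, stood at 91.9, 80.7 and 94.7 CPM in the P1 libraries, 74.6, 43.0 and 23.4 at P14, then 9.74, 5.72 and 3.92 at P56. No ages overlapped, and P14 replicate 1 was the nearest to P1. Fstl1 fell by 2.87 ± 0.42 from P14 to P56 (adjusted p = 0.000348), or −0.48 and not called with the marker score. From P1 to P14 the change was −0.92 ± 0.38 (adjusted p = 0.0623), called without P14 replicate 1 (−1.42, adjusted p = 0.00303), without P56 replicate 1 (−0.92, adjusted p = 0.0449), with the replicate number as a block (−1.09, adjusted p = 0.00738) and with the marker score (−2.76, adjusted p = 2.03e-07). Fstl3, an activin antagonist, was at most 1.03 CPM and fell by 1.02 ± 0.32 from P1 to P14 (adjusted p = 0.0211). Without P1 replicate 1 or 3 or P14 replicate 2 or 3 that fall was not called (−0.79 to −1.02, adjusted p = 0.053 to 0.0792), and with the marker score it was −1.87. Fibroblast markers summed to 162 to 324 CPM in the P1 libraries, 227 to 836 in the P14 libraries and 53.9 to 107 in those of P56, and their part in the Fstl1 values was not tested.

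Of the 7 type I receptors, 4 fell and 1 rose from P1 to P14. From P14 to P56 the 1 that had risen, Acvrl1, fell, and the other 6 were not called. Bmpr1a (chromosome 14, 34410734 to 34503341), the main BMP receptor of the heart, had the highest level of all 49 genes, also per kilobase of exon (75.7 ± 0.829, 75.7 ± 6.36 and 78.9 ± 3.27 at the 3 ages, SD, n = 3). It stood at 479, 486 and 476 CPM in the P1 libraries, 442, 477 and 522 at P14, then 522, 501 and 481 at P56. All ages overlapped, and its log2 changes of 0.00 ± 0.07 and 0.06 ± 0.07 (adjusted p = 0.995 and 0.472) were within the spread of the libraries. Its close relative Bmpr1b (chromosome 3, 141837136 to 142169425) stood at 34.4, 19.6 and 27.6 CPM in the P1 libraries, 4.75, 3.24 and 6.24 at P14, then 4.39, 7.71 and 11.4 at P56. P1 lay above all other libraries, while P14 and P56 overlapped. Bmpr1b fell by 2.52 ± 0.36 (adjusted p = 0.000265), and the later change was 0.73 ± 0.35 (adjusted p = 0.108, or 1.01 and 0.0223 without P56 replicate 1, and −0.36 and 0.712 with the marker score). The intervals differed (3.24 ± 0.65, adjusted p = 0.00256), and Bmpr1b stayed lower at P56 than at P1 (−1.79, adjusted p = 0.00118).

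Acvr1, the BMP type I receptor mutated in heterotopic bone formation, stood at 158, 157 and 149 CPM in the P1 libraries, 126, 121 and 110 at P14, then 115, 108 and 119 at P56. P1 was above all others, and P14 and P56 overlapped. Acvr1 fell by 0.38 ± 0.07 (adjusted p = 0.000888) with −0.07 ± 0.07 afterwards (adjusted p = 0.414). Tgfbr1, the type I receptor for TGF-beta, stood at 109, 109 and 112 CPM in the P1 libraries, 101, 82.5 and 83.2 at P14, then 88.6, 82.3 and 85.2 at P56. It fell by 0.31 ± 0.08 (adjusted p = 0.00751), or −0.51 with the marker score, and P14 and P56 overlapped. Acvr1c, a nodal and activin receptor, stood at 2.32 to 2.60 CPM at P1 and at 0.938 to 1.32 CPM later, and fell by 1.17 ± 0.18 (adjusted p = 0.000372). Acvr1b, the activin receptor, stood at 52.8, 53.1 and 49.1 CPM in the P1 libraries, 46.2, 49.2 and 52.0 at P14, then 44.5, 45.2 and 45.6 at P56. P56 lay below all others, and P1 and P14 overlapped. Acvr1b was called lower at P56 than at P1 (−0.20, adjusted p = 0.0176), though not without P1 replicate 1 or 2 (−0.18 in each, adjusted p = 0.064 and 0.0671), and lower than at P14 without P14 replicate 1 (−0.17, adjusted p = 0.036). Acvrl1, the BMP9 and BMP10 receptor of endothelial cells, stood at 1.50, 1.18 and 1.60 CPM in the P1 libraries, 10.8, 6.25 and 3.64 at P14, then 2.11, 1.47 and 0.891 at P56. P14 lay above all others, with replicate 1 the highest. Acvrl1 rose by 2.27 ± 0.40 (adjusted p = 0.000965) and fell by 2.21 ± 0.40 (adjusted p = 0.00124), and with the marker score it stood at 0.48 and 0.16, neither called.

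Type II and III receptors included 3 genes that rose from P14 to P56, and none fell. Tgfbr2 (chromosome 9, 116084293 to 116175360), the type II receptor for TGF-beta, stood at 55.8, 53.5 and 46.7 CPM in the P1 libraries, 63.1, 53.3 and 49.2 at P14, then 90.1, 89.8 and 91.6 at P56. The P56 libraries lay above all others and close to each other, and P1 and P14 overlapped. Tgfbr2 rose by 0.71 ± 0.10 from P14 to P56 (adjusted p = 0.000217) after 0.09 ± 0.10 (adjusted p = 0.471), and the intervals differed (0.63 ± 0.17, adjusted p = 0.0116). The rise was 0.94 with the marker score. Tgfbr3, betaglycan, the co-receptor that presents TGF-beta2, had the highest level of these 5 per kilobase of exon (34.8 ± 2.30, 47.9 ± 1.77 and 54.8 ± 2.63, SD, n = 3). It stood at 234, 238 and 210 CPM in the P1 libraries, 308, 306 and 327 at P14, then 347, 378 and 350 at P56. No ages overlapped, and it rose by 0.46 ± 0.07 (adjusted p = 0.000265) and then by 0.19 ± 0.07 (adjusted p = 0.0292). The second rise was not called without P14 replicate 1 or 2 or P56 replicate 2 (0.18, 0.18 and 0.15, adjusted p = 0.0559, 0.0892 and 0.103) or with the marker score (0.04).

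Acvr2a, an activin and BMP type II receptor, stood at 132, 142 and 141 CPM in the P1 libraries, 133, 109 and 113 at P14, then 171, 155 and 151 at P56. The P56 libraries lay above all others, and P1 and P14 overlapped. Acvr2a rose by 0.43 ± 0.08 from P14 to P56 (adjusted p = 0.00168), or 0.73 with the marker score. The fall before it, 0.22 ± 0.08 (adjusted p = 0.0399), was lost without any P1 library, without P14 replicate 2 or 3 and without P56 replicate 2 (−0.17 to −0.25, adjusted p = 0.0544 to 0.145), as well as with DESeq2 (adjusted p = 0.0511), and stood at −0.44 with the marker score. Against P1, P56 was at 0.20 (adjusted p = 0.0531), called without P14 replicate 1 (0.20, adjusted p = 0.0119). Acvr2b, its relative, stood at 15.7, 14.7 and 12.8 CPM in the P1 libraries, 11.0, 9.14 and 9.46 at P14, then 9.08, 8.13 and 7.60 at P56. No ages overlapped. It fell by 0.54 ± 0.12 (adjusted p = 0.00289) and was at −0.25 ± 0.12 from P14 to P56 (adjusted p = 0.0888), which was called with the replicate number as a block (adjusted p = 0.0401) and without P56 replicate 1 (−0.33, adjusted p = 0.0491). Bmpr2, the BMP type II receptor whose mutations cause pulmonary hypertension, stood between 117 and 149 CPM with all ages overlapping, and was called in no comparison. Without P14 replicate 1 it was called lower at P14 than at P1 (−0.21, adjusted p = 0.0172), and with the marker score it was called in both intervals (−0.40 and 0.46, adjusted p = 0.00478 and 0.0159).

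At P56 the order of the receptors per kilobase of exon was Bmpr1a (78.9 ± 3.27), Tgfbr3 (54.8 ± 2.63), Acvr2a (28.0 ± 1.87), Acvr1 (23.6 ± 1.14), Tgfbr1 (13.1 ± 0.478), Tgfbr2 (11.1 ± 0.124), Acvr1b (10.2 ± 0.130), Bmpr2 (7.41 ± 0.459), Acvr2b (2.11 ± 0.192), Bmpr1b (1.31 ± 0.588), Acvrl1 (0.349 ± 0.143) and Acvr1c (0.114 ± 0.00631). At P1 the order differed in 3 places. Acvr1 (32.0 ± 1.03) stood above Acvr2a (24.3 ± 0.895), Tgfbr2 (6.35 ± 0.578) stood below Acvr1b (11.7 ± 0.504) and Bmpr2 (7.72 ± 0.190), and Bmpr1b (4.56 ± 1.24) stood above Acvr2b (3.66 ± 0.378), the last a gap smaller than the SD of Bmpr1b. Whether introns were counted is not stated in the labels. As a description over the 49 genes, all measured in the same 9 libraries, mean CPM ran with the whole gene span (Spearman's rho 0.75). It ran less with exon length (0.53), so levels per exon length of long genes such as Ltbp1 and Bmpr1b are uncertain. Ranks also depended on the length used. Per kilobase of gene span, Acvr1 at P56 (0.637) stood below Tgfbr1 (1.38), Bmpr2, Acvr1b (1.14) and Tgfbr2 (0.994). At P1, Acvr2a (1.55) stood above Tgfbr3 (1.24) by this measure. Bmpr1a stayed the highest receptor at each age.

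Of the receptor-regulated and common SMADs, 2 of 6 rose and 2 fell from P1 to P14, and the same counts held from P14 to P56. The BMP-type SMADs took different courses. Smad9 (chromosome 3, 54755582 to 54801257) stood at 2.69, 2.84 and 2.95 CPM in the P1 libraries, 4.50, 4.73 and 4.66 at P14, then 10.1, 7.51 and 11.9 at P56. No ages overlapped and P56 was the highest. Smad9 rose by 0.71 ± 0.16 (adjusted p = 0.0041) and by 1.09 ± 0.16 (adjusted p = 0.000311), 1.80 ± 0.16 in all (adjusted p = 5.79e-06), and the intervals did not differ by test (0.38 ± 0.28, adjusted p = 0.281). It was nevertheless the least abundant of the 6 per kilobase of exon, at 1.83 ± 0.410 at P56 beside 7.17 ± 0.119 for Smad1 and 8.96 ± 0.643 for Smad5.

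Smad1 stood at 44.0, 40.8 and 42.2 CPM in the P1 libraries, 63.7, 59.1 and 53.6 at P14, then 45.5, 45.2 and 44.1 at P56. P14 lay above all others. Smad1 rose by 0.47 ± 0.07 (adjusted p = 0.000311) and fell by 0.39 ± 0.07 (adjusted p = 0.00107), which with the marker score were 0.28 and −0.12, the second not called (adjusted p = 0.484). Smad5 stood at 82.8, 85.3 and 83.9 CPM in the P1 libraries, 78.1, 66.7 and 67.6 at P14, then 70.3, 67.9 and 61.1 at P56. P1 lay above all others, and P14 and P56 overlapped. Smad5 fell by 0.25 ± 0.08 from P1 to P14 (adjusted p = 0.019). That fall was not called without P1 replicate 2 or P14 replicate 2 or 3 (−0.21 to −0.24, adjusted p = 0.058 to 0.0744), and stood at −0.45 with the marker score, while Smad5 at P56 was lower than at P1 (−0.34, adjusted p = 0.00307).

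Among the TGF-beta and activin SMADs, Smad2 stood at 86.2, 85.3 and 82.9 CPM in the P1 libraries, 69.7, 64.8 and 68.2 at P14, then 81.6, 78.0 and 71.3 at P56. P1 was the highest. Smad2 fell by 0.33 ± 0.06 (adjusted p = 0.00141) and rose by 0.19 ± 0.06 (adjusted p = 0.0253). The rise was lost without P14 replicate 2 or P56 replicate 1 or 2 (0.14 to 0.18, adjusted p = 0.0685 to 0.0885) and with the marker score (0.32, adjusted p = 0.07), and without P56 replicate 1 Smad2 was called lower at P56 than at P1 (−0.18, adjusted p = 0.0268). Smad3, of the highest mean CPM among the 6, stood at 110, 124 and 97.5 CPM in the P1 libraries, 111, 119 and 138 at P14, then 81.8, 108 and 103 at P56. P1 overlapped with both later ages, and P56 lay just below P14. Its fall from P14 to P56 (−0.33 ± 0.13, adjusted p = 0.0456) was lost without any of P1 replicate 1, P14 replicates 2 and 3 and P56 replicates 1 and 3 (−0.22 to −0.37, adjusted p = 0.0636 to 0.14), and stood at −0.97 with the marker score, which also gave a called 0.61 from P1 to P14 (adjusted p = 0.00109). Smad4, the partner of all receptor-regulated SMADs, had the highest level of the 6 per kilobase of exon (28.8 ± 0.625, 25.3 ± 2.63 and 26.9 ± 1.32, SD, n = 3). Per kilobase of gene span, Smad5 was higher at each age (2.13, 1.8 and 1.69, beside 1.65, 1.45 and 1.54 for Smad4). Smad4 stood at 104, 109 and 107 CPM in the P1 libraries, 105, 87.4 and 89.3 at P14, then 106, 96.8 and 97.4 at P56. All ages overlapped. Smad4 passed in no comparison (−0.19 ± 0.07 from P1 to P14, adjusted p = 0.0576), and was called in both intervals without P14 replicate 1 (−0.27 and 0.18, adjusted p = 0.00244 and 0.0239) and in the first with the replicate number as a block (adjusted p = 0.0483) or with the marker score (−0.37, adjusted p = 0.0118).

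The inhibitory SMADs and their ubiquitin ligase partners rose together from P1 to P14: Smad6, Smad7, Smurf1 and Smurf2 were all called higher, 4 of the 6 genes in this role. Smad6 (chromosome 9, 63953076 to 64022059), which mainly restrains BMP signals, stood at 46.8, 49.9 and 45.1 CPM in the P1 libraries, 77.9, 95.9 and 99.4 at P14, then 39.2, 46.8 and 47.5 at P56. P14 lay above all others, and P1 and P56 overlapped. Smad6 rose by 0.95 ± 0.10 (adjusted p = 5.49e-05) and fell by 1.03 ± 0.11 (adjusted p = 4.16e-05), so that P56 was at −0.09 ± 0.10 against P1 (adjusted p = 0.484). Smad7, which restrains both arms, stood at 17.0, 17.5 and 17.8 CPM in the P1 libraries, 39.5, 43.0 and 44.6 at P14, then 21.9, 26.3 and 24.1 at P56. No ages overlapped. It rose by 1.28 ± 0.08 (adjusted p = 1.81e-06), fell by 0.81 ± 0.08 (adjusted p = 3.96e-05) and stayed above P1 at P56 (0.47 ± 0.08, adjusted p = 0.0007). In both genes P14 replicate 1, the library with the highest marker sum, was the lowest of the P14 libraries. Their changes with the marker score were 1.32 and −1.56 for Smad6 and 1.46 and −1.06 for Smad7.

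Smurf1, a ubiquitin ligase that marks BMP SMADs and receptors for breakdown, stood at 99.2, 107 and 91.5 CPM in the P1 libraries, 151, 168 and 172 at P14, then 133, 153 and 145 at P56. P1 lay below all others, and P14 and P56 overlapped. Smurf1 rose by 0.72 ± 0.08 (adjusted p = 5.52e-05) and was at −0.19 ± 0.08 afterwards (adjusted p = 0.0692), so that P56 remained above P1 (0.54 ± 0.08, adjusted p = 0.000228). The later change was called without P14 replicate 1 (−0.24, adjusted p = 0.023), with the replicate number as a block (adjusted p = 0.0492) and with the marker score (−0.51, adjusted p = 0.011). Smurf2 stood at 132, 137 and 131 CPM in the P1 libraries, 158, 151 and 147 at P14, then 137, 144 and 137 at P56. Every P14 library lay above the rest by a small margin. Smurf2 rose by 0.19 ± 0.05 (adjusted p = 0.0116), or 0.15 and not called with the marker score, and was at −0.13 ± 0.05 from P14 to P56 (adjusted p = 0.0594, or 0.0492 at −0.15 without P14 replicate 3).

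Tgif2 (chromosome 2, 156840007 to 156855570), a homeodomain repressor of SMAD-driven transcription, showed the steepest fall of the 49 genes from P1 to P14. It stood at 13.4, 12.9 and 12.5 CPM in the P1 libraries, 1.23, 0.838 and 0.331 at P14, then 0.0453, 0.0230 and 0.0668 at P56, on 2220, 91 and 6 counts over the 3 libraries of each age. No ages overlapped. Tgif2 fell by 4.00 ± 0.31 from P1 to P14 (adjusted p = 5.54e-06) and by 4.07 ± 0.57 from P14 to P56 (adjusted p = 0.000271), and the intervals did not differ by test (−0.07, adjusted p = 0.904). The P56 libraries were at 0.0230 to 0.0668 CPM, at or below what 3 counts give, so the size of the later fall rests on few counts. The fit with the marker score gave −5.05 and −2.68, both called. Tgif1, its relative, stood at 1.38, 1.19 and 1.13 CPM in the P1 libraries, 2.12, 1.54 and 0.607 at P14, then 0.408, 0.298 and 0.156 at P56. P56 lay below all others, and P1 and P14 overlapped. Tgif1 was at 0.21 ± 0.39 from P1 to P14 (adjusted p = 0.674) and fell by 2.30 ± 0.46 from P14 to P56 (adjusted p = 0.00219), or −1.51 (adjusted p = 0.0166) and −0.06 with the marker score. An exon of Tgif2 overlaps a transcript on the opposite strand, as holds for 13 of the 49 genes, while 3 others share exon sequence with a neighbour on their own strand, and no source used here says whether counting used strand.

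**Figure D3:**
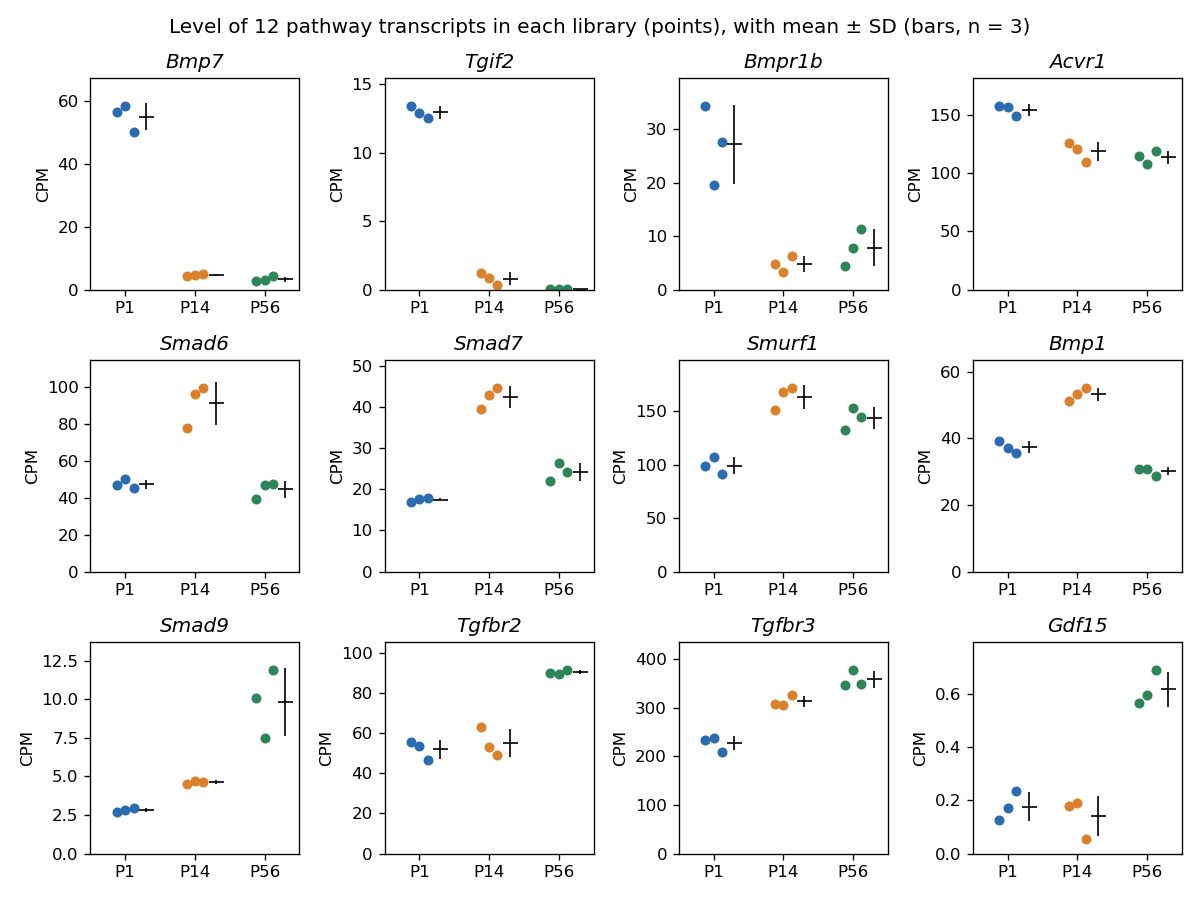
CPM of 12 pathway genes in each library (points) with the mean ± SD of the 3 libraries of an age (bars), each axis starting at 0. Bmp7, Tgif2, Bmpr1b and Acvr1 (top row) are highest at P1. Smad6, Smad7, Smurf1 and Bmp1 (middle row) are highest at P14 by their means, with Smad7 at 39.5 to 44.6 CPM there against 17.0 to 17.8 at P1. Smad9, Tgfbr2, Tgfbr3 and Gdf15 (bottom row) are highest at P56.

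ID proteins, which block basic helix-loop-helix factors and are classical BMP targets, were at most 7.44 CPM. Id1 stood at 0.680, 0.493 and 0.522 CPM in the P1 libraries, 4.09, 2.70 and 1.10 at P14, then 0.634, 0.276 and 0.223 at P56. Id3 stood at 1.50, 1.18 and 1.89 CPM in the P1 libraries, 7.44, 5.27 and 2.76 at P14, then 1.95, 0.735 and 0.936 at P56. In both genes every P14 library lay above all others, with replicate 1 the highest and replicate 3 the lowest. Id1 rose by 2.21 ± 0.47 and fell by 2.80 ± 0.51 (adjusted p = 0.00302 and 0.00121), and Id3 rose by 1.76 ± 0.41 and fell by 2.10 ± 0.42 (adjusted p = 0.00476 and 0.00221). With the marker score Id1 stood at 0.09 and −0.02 and Id3 at 0.05 and 0.19, none of them called. Id2 stood between 0.551 and 2.27 CPM and was called in no comparison, except from P1 to P14 without P14 replicate 1 (−1.01, adjusted p = 0.0439) or with the marker score (−1.68, adjusted p = 0.045).

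A peak at P14, with every P14 library above every other library, was found in 14 of the 49 genes, and 11.0% of all genes had one. These were Tgfb1, Bmp4, Bmp6, Bmp1, Inhbb, Ltbp3, Ltbp4, Acvrl1, Smad1, Smad6, Smad7, Smurf2, Id1 and Id3, and all but Smurf2 were called in both intervals (13 genes, against 10.9% of all genes). They differed in how the P14 libraries were ordered. Ltbp4, Bmp6, Acvrl1, Id1, Id3 and Bmp4 were among the 19 genes whose level in P14 replicate 1 was more than 2 times that in replicate 3, beside 11.7% of all genes, and fibroblast markers were at 836 and 227 CPM and endothelial markers at 547 and 214 CPM in these libraries. Smad6, Smad7, Bmp1 and Ltbp3 were instead higher in replicate 3 than in replicate 1, as were 13 of the 49 genes and 48.7% of all genes. Between these lay Tgfb1, Inhbb, Smad1 and Smurf2, at 1.72, 1.56, 1.19 and 1.08 times their replicate 3 level in replicate 1. With the marker score in the fit, Smad6, Smad7, Bmp1 and Ltbp3 were called in both intervals, and Ltbp4, Acvrl1, Id1, Id3, Bmp4, Tgfb1 and Inhbb in neither. Bmp6 and Smad1 kept the call of the rise but not that of the fall, and the rise of Smurf2 was not called, so the calls did not simply follow the replicate order. Without P14 replicate 1, 30 of 32 calls of P14 against P1 and 29 of 32 of P56 against P14 held. In that setting 29.5% of all genes rose and 28.9% fell from P1 to P14, and 28.0% rose and 28.8% fell from P14 to P56. The P14 libraries that remained had marker sums of 1240 and 668 CPM, beside 447 to 670 at P1 and 162 to 324 at P56.

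**Figure D4:**
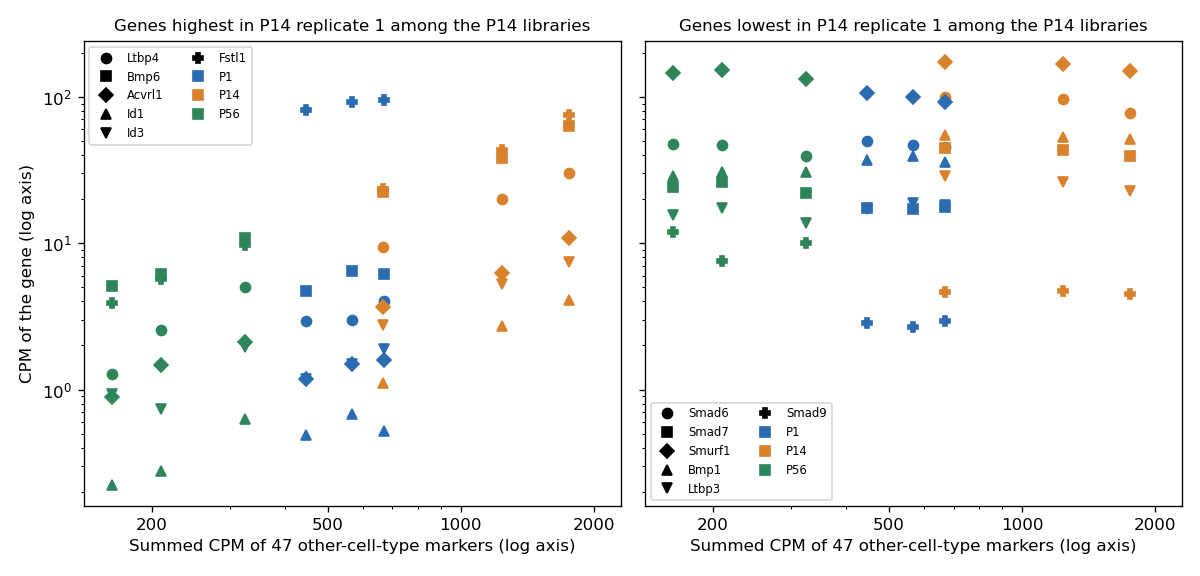
CPM of pathway genes in the 9 libraries against the summed CPM of 47 markers of other cell types, both on log axes, coloured by age. The genes were picked after their values were seen: on the left those highest in P14 replicate 1 among the P14 libraries, such as Ltbp4 (30.2, 20.1 and 9.49 CPM in P14 replicates 1 to 3), and on the right those lowest in it, such as Smad6 (77.9, 95.9 and 99.4 CPM).

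Over the whole course from P1 to P56, the 6 genes that rose were Smad9, Gdf15, Tgfbr2, Tgfbr3, Smurf1 and Smad7, and all 6 were also called with the marker score. The other 6 called higher with the score were Acvr2a, Tgfb1, Ltbp4, Smad1, Bmp6 and Acvrl1. Called lower only with the score were Smad3 (−0.36, adjusted p = 0.00142), Smad6 (−0.24, adjusted p = 0.00822) and Ltbp3 (−0.32, adjusted p = 0.0154). The 20 that fell included 4 of the 6 BMP ligands (Bmp2, Bmp5, Bmp7 and Bmp10), 2 of the 3 TGF-beta ligands (Tgfb2 and Tgfb3), 5 of the 7 type I receptors and both follistatin-like genes. The largest falls were those of Tgif2 (−8.07 ± 0.45, adjusted p = 2.69e-07), Bmp7 (−4.07 ± 0.16, adjusted p = 2.61e-08) and Fstl1 (−3.79 ± 0.43, adjusted p = 3.48e-05), leaving aside Bmp10, which was at 0 counts at P56. No latent binding protein and no ID gene was called between these ages. The 8 genes that did not pass the test for any difference among ages were Gdf6, Gdf10, Ltbp2, Bmpr1a, Bmpr2, Smad3, Smad4 and Id2.

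Other genes of the pathway were read from lists of 111 genes written by role. From P1 to P14, 35 of them (31.5%) rose and 33 (29.7%) fell (median log2 change 0.08), near the 28.4% and 27.5% of all genes. From P14 to P56, 30 (27.0%) rose and 51 (45.9%) fell (median −0.22), beside 27.5% and 28.5%, and from P1 to P56, 28 (25.2%) rose and 50 (45.0%) fell (median −0.22), beside 30.9% and 31.7%. These shares of all genes are also the background of each list that follows. Values with the marker score are not given for these lists. Of 20 genes that process and activate the ligands, 9 rose and 4 fell from P1 to P14, and 1 rose and 17 fell from P14 to P56 (median −2.20). The gene that rose in both intervals was Itgb6, the integrin β6 chain that activates latent TGF-beta, which went from 56.0 ± 7.63 through 333 ± 46.1 to 549 ± 59.1 CPM from P1 to P56 (SD, n = 3; log2 changes 2.57 ± 0.14 and 0.72 ± 0.13, adjusted p = 5.2e-07 and 0.00103). Fbn2, the fetal fibrillin that binds latent complexes, went from 499 ± 8.26 through 220 ± 12.9 to 23.1 ± 3.90 CPM (−1.18 ± 0.10 and −3.25 ± 0.11, adjusted p = 1.05e-05 and 1.07e-07). Pcsk6, a proprotein convertase, rose by 3.12 ± 0.49 and fell by 2.35 ± 0.47 (adjusted p = 0.000467 and 0.00211), while its relative Pcsk5 fell by 1.39 ± 0.17 and 0.59 ± 0.17 (adjusted p = 9.91e-05 and 0.0144). Fbn1, the adult fibrillin of fibroblasts, rose by 1.74 ± 0.46 and fell by 3.17 ± 0.50 (adjusted p = 0.00965 and 0.000496). Lrrc32 and Nrros, which hold latent TGF-beta on platelets, regulatory T cells and macrophages, rose by 2.02 ± 0.40 and 1.91 ± 0.40 from P1 to P14 (adjusted p = 0.00199 and 0.00252). Mmp14, a membrane protease, fell by 4.03 ± 0.51, and the integrin chain Itgb3 by 3.28 ± 0.39, from P14 to P56 (adjusted p = 0.000142 and 0.000104). In P14 replicates 1 to 3, Pcsk6 stood at 62.6, 33.6 and 15.6 CPM and Fbn1 at 181, 112 and 49.2 CPM, the order of the marker sums. Of the genes named from this list, Itgb6 and Fbn2 were lowest in P14 replicate 1, and the others were highest in it. The part of other cell types in these values was not tested.

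Of 7 co-receptors, 3 rose and 2 fell from P1 to P14, and 2 rose and 3 fell afterwards. Neo1, neogenin, which binds the repulsive guidance molecules, had the highest CPM, at 459 ± 7.98, 289 ± 10.2 and 389 ± 24.7 (SD, n = 3; log2 changes −0.66 ± 0.06 and 0.43 ± 0.06, adjusted p = 1.61e-05 and 0.000289). Eng, endoglin of endothelial cells, rose by 2.11 ± 0.37 and fell by 2.69 ± 0.38 (adjusted p = 0.000932 and 0.000288), beside the endothelial marker sums given above. The BMP co-receptors Hfe2, hemojuvelin of striated muscle and liver, and Rgma rose by 1.66 ± 0.15 and 1.05 ± 0.12 from P1 to P14 (adjusted p = 1.41e-05 and 7.09e-05). Bambi, a pseudoreceptor that dampens signalling, fell by 0.91 ± 0.12 and rose by 0.70 ± 0.12 (adjusted p = 0.000164 and 0.000848). Among 15 other extracellular antagonists 9 rose and 1 fell from P1 to P14, and 6 rose and 4 fell afterwards. Crim1, a membrane protein that binds BMPs, went from 39.6 ± 1.98 through 112 ± 11.2 to 232 ± 13.0 CPM (log2 changes 1.50 ± 0.08 and 1.05 ± 0.08, adjusted p = 6.02e-07 and 7.54e-06). Nbl1, a DAN-family antagonist, rose by 2.33 ± 0.18 and fell by 2.12 ± 0.18 (adjusted p = 4.72e-06 and 1.38e-05), and the protease gene Htra3 rose by 3.15 ± 0.46 and fell by 2.07 ± 0.44 (adjusted p = 0.000315 and 0.0029). Fstl4, of highest CPM in this list, fell by 0.56 ± 0.15 from P1 to P14 (adjusted p = 0.0092). In P14 replicates 1 to 3, Eng stood at 57.5, 36.7 and 25.3 CPM and Htra3 at 41.5, 21.8 and 13.3 CPM, the order of the marker sums. Hfe2, Rgma, Bambi, Nbl1 and Fstl4 were instead highest in replicate 3 of that age. Among 3 other ligands, Mstn, myostatin, stood at 0.0430 ± 0.0380, 0.0541 ± 0.0286 and 1.07 ± 0.0936 CPM and rose by 4.26 ± 0.53 from P14 to P56 (adjusted p = 0.000135), and Inha, the inhibin α subunit, rose by 0.84 ± 0.17 from P1 to P14 (adjusted p = 0.00217). The P14 libraries had 0.0256 to 0.0828 CPM of Mstn, at or below what 3 counts give, so the size of the Mstn rise rests on few counts.

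Of 26 intracellular regulators, 4 rose and 12 fell from P1 to P14, and 12 rose and 7 fell from P14 to P56. Ski, a repressor of SMAD transcription, stood at 141 ± 8.01, 217 ± 18.5 and 99.7 ± 16.0 CPM (log2 changes 0.63 ± 0.11 and −1.13 ± 0.11, adjusted p = 0.000999 and 3.62e-05) and was thus highest at P14. Nedd4l, a ubiquitin ligase of SMAD2 and SMAD3 and of highest CPM in the list, fell by 0.41 ± 0.06 and rose by 0.25 ± 0.06 (adjusted p = 0.000388 and 0.00635). Usp11, a deubiquitinase that acts on receptors, fell by 1.71 ± 0.10 from P1 to P14 (adjusted p = 1.26e-06), and the phosphatase gene Ctdspl fell by 0.83 ± 0.15 and by 1.05 ± 0.15 (adjusted p = 0.00111 and 0.000329). Of 12 genes of the TAK1 branch, the SMAD-independent route to p38 and JNK kinases, 2 rose and 8 fell by P14, and 6 rose and none fell afterwards. Map2k3 and Map2k6, both kinases of p38, moved in opposite directions from P1 to P14, at 1.71 ± 0.11 and −1.34 ± 0.10 (adjusted p = 1.89e-06 and 4.35e-06). Map2k4, the kinase of JNK and of highest CPM in the list, fell by 0.13 ± 0.05 and rose by 0.22 ± 0.05 (adjusted p = 0.0357 and 0.00283).

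Of 16 TGF-beta target genes, 3 rose and 2 fell from P1 to P14, and 1 rose and 12 fell from P14 to P56. Bhlhe40, a transcription factor of the clock, rose in both intervals (0.46 ± 0.08 and 0.66 ± 0.08, adjusted p = 0.000927 and 0.000116). Cdkn1a, the cell cycle inhibitor p21, peaked at P14 with a rise of 2.06 ± 0.17 and a fall of 3.59 ± 0.19 (adjusted p = 8.21e-06 and 1e-06). Tgfb1i1, Hic-5 of focal adhesions, fell by 1.74 ± 0.17 and 2.76 ± 0.21 (adjusted p = 2.58e-05 and 8.31e-06), and Fn1, fibronectin, fell by 3.53 ± 0.50 from P14 to P56 (adjusted p = 0.000297). Zeb1, a repressor and the target of highest CPM, was at −0.10 ± 0.10 and then fell by 0.38 ± 0.10 (adjusted p = 0.389 and 0.0087). Of 12 BMP target genes, 4 rose and 4 fell by P14, and 1 rose and 7 fell afterwards. Hey2, a Notch and BMP effector of the ventricle, stood at 112 ± 4.57, 10.4 ± 1.95 and 13.7 ± 2.10 CPM and fell by 3.43 ± 0.14 from P1 to P14 (adjusted p = 1.39e-07). Gata4, a cardiac transcription factor, had the highest mean CPM in this list, at 672 ± 18.5, 423 ± 34.7 and 446 ± 24.5, and fell by 0.67 ± 0.07 from P1 to P14 (adjusted p = 4.98e-05). Tbx20, another such factor and the highest at P1 (761 ± 42.0 CPM), fell by 1.24 ± 0.08 (adjusted p = 1.7e-06), and Atoh8 rose by 1.68 ± 0.12 (adjusted p = 2.84e-06). Hey1 rose by 2.15 ± 0.46 and fell by 2.13 ± 0.48 (adjusted p = 0.00311 and 0.00398). In P14 replicates 1 to 3, Fn1 stood at 53.3, 33.9 and 14.8 CPM and Hey1 at 1.56, 1.32 and 0.607 CPM, the order of the marker sums. Of the genes named from these lists, Cdkn1a, Bhlhe40, Hey2, Gata4 and Atoh8 did not have that order.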

How the data were processed

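RNA of 9 libraries was analysed, 3 each at P1, P14 and P56, grouped by the age in their titles. The authors deposited 1 table of raw counts per gene. The submitters' processing notes name featureCounts 1.4.2, STAR 2.4.0g1, bcl2fastq 2.17.1.14 and the build GRCm38. Counting mode and strand setting: not given in the sources used here. The smallest mean count of a gene was 10, a trace of an earlier filter.

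Counts were fitted with edgeR 4.0.16 (filterByExpr, TMM, glmQLFit, glmQLFTest) in R 4.3.3 on all 9 libraries, with age alone as a term, for 15817 genes (common dispersion 0.0192). Adjusted p-values are Benjamini-Hochberg over these genes, with a threshold of 0.05. Log2 changes are fitted values, and their SE is the log2 change divided by the square root of the test's F. CPM uses TMM-scaled library sizes, and exon lengths and positions come from GENCODE M21 (GRCm38). Precision follows from 3 libraries per age and totals of 36619799 to 58538025 counts. Pairs of libraries of 1 age differed by more than counting error (chi-square per degree of freedom 5.48 to 101), so none was counted as a repeat.

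Alternatives were DESeq2 1.42.0, its size factors in edgeR, no filter, a filter of mean 1 CPM, only the ages compared, the replicate number as a block, the marker score as a covariate, and each library left out. The edgeR and DESeq2 steps were tested on simulated counts. Values in all libraries are printed for genes past the threshold whose highest age has a mean of 5 CPM or more or a log2 change of at least 2, and for the highest gene of each role, with a few others. From each list of further pathway genes up to 4 per direction were named, and 1 gene of the TGF-beta target list is not reported here or counted. Members and lists were chosen with earlier results of these data known.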

Additional observations from a re-analysis of the deposited data

How the results depend on the processing

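The counts of the 49 genes called higher and lower were 18 and 14 from P1 to P14, 6 and 26 from P14 to P56, and 6 and 20 from P1 to P56, with 41 differing among ages and 29 differing between the intervals. With 1 library left out in turn they ran from 16 to 21 and 11 to 17, from 4 to 6 and 22 to 28, and from 6 to 8 and 19 to 22, with 38 to 43 and 24 to 33. Replicate numbers are not stated to pair libraries of different ages, and the correlations were mixed and cannot settle it. Same-numbered libraries of different ages had correlations of −0.28 to 0.57 in their deviations, 3 of 9 over 0.1, and 5 of 9 libraries correlated best with their own number. With the replicate number as a block the counts were 18 and 16, 6 and 28, 6 and 20, 40 and 28. Among the settings tried, the marker score in the fit moved counts by more than 1.5 times: 11 higher and 22 lower from P1 to P14, 10 lower from P14 to P56, 12 higher from P1 to P56, and 17 differing between the intervals. It also turned directions. Among values called with or without it, from P1 to P14 Gdf6 stood at −1.94, Gdf10 at −2.10, Tgfb3 at −0.76 and Tgif1 at −1.51. From P14 to P56 Id3 stood at 0.19, Tgfb1 at 0.21, Ltbp4 at 0.00, Gdf11 at 0.02, Gdf10 at 1.48, Bmp5 at 0.22, Tgfb3 at 0.05 and Acvrl1 at 0.16, and from P1 to P56 Ltbp4 stood at 0.46 (adjusted p = 0.0274). Values called in neither fit turned too, among them Bmp2 from P1 to P14 (−0.64), Gdf6 from P14 to P56 (1.60) and Ltbp2 in both intervals (−0.25 and 0.81). The score has few libraries to be told apart from age, and the cause was not tested. Over the genes taken singly, leaving out a library ended 52 calls and added 24 among 1323 values and reversed none. The other settings without the score ended 8 and added 14 among 849 and reversed none. Depth limits the genes of under 1 CPM, such as Bmp10, Gdf10 and Tgif2 at P56, and the filter of mean 1 CPM gave no values for the lowest of them.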
